A study of Homo sapiens with 4 samples.

Results

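A set of 31 genes was below detection in HCT116 cells given vehicle and was detected after 5-azacytidine in both of the subpopulations studied. They come from 21614 genes that could be named on the array, of which 9081 had a probe that was silent on both vehicle arrays. Members were chosen on the measured signal. Every spot of a probe with a RefSeq accession had to be not well above background on both vehicle arrays and well above it on both 5-azacytidine arrays, with a background-corrected intensity of at least 25 on each of the latter. The MAGE, PAGE, XAGE, GAGE, SSX, CTAG, TDRD, SYCP and HOX families, TKTL1 and DDX43 were left out by name, which removed TKTL1, SYCP3, XAGE1A and MAGEA9. Each member met these conditions through 1 probe with 1 spot. Since the response to 5-azacytidine chose the members, its size is a description and no test of it is given.

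HCT116 is an established human colorectal carcinoma cell line. The MG cells are the subpopulation that crossed the membrane of a transwell chamber through 5 rounds of selection, and the non-MG cells are the one that stayed behind. Each was treated with 5 µM 5-azacytidine or with vehicle for 48 h, and its RNA was measured on one-colour arrays, 4 in all on 1 slide. With 1 array for each condition, no replicates exist and conditions could not be tested against each other. The non-MG and MG arrays lay in separate rows of the slide, and vehicle and 5-azacytidine in separate columns, so that cell type and treatment cannot be told apart from slide position. On the 4 arrays 21370 to 21868 of 50599 probes were well above background, the 75th percentile of intensity was 75.2 to 98.7, and no spot was saturated. Of 10 markers of colon epithelium 9 were well above background on all 4 arrays. Of 11 markers of leukocytes, endothelium and fibroblasts 7 were silent on both vehicle arrays, 3 (CD68, VWF and COL1A1) were on everywhere, and none met the detection part of the rule.

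5-azacytidine is a cytidine analogue that is built into nucleic acids and traps DNA methyltransferases, so that cells dividing in its presence lose methylation at CpG dinucleotides. Promoters dense in CpG are mostly unmethylated in normal tissue, but those of many germ-line and early embryonic genes are methylated and silent in somatic cells, and colorectal cancer cells add methylation at further promoters. DNA methylation was not analysed here, and all values are RNA signals.

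At the required signal the switch ran in 1 direction. Before any name was left out, 35 of the 9081 genes with a silent probe (0.385%) had one that was on in both subpopulations after treatment, whereas 0 of 11888 genes (0%) with a probe on at this level under vehicle had it silent on both 5-azacytidine arrays. All 35 were silent with vehicle by every RefSeq probe they have, which holds for 7637 genes in all. The contrast depended on the signal required. With no minimum 126 genes were switched on by at least 1 probe in both subpopulations and 124 were switched off, and at a minimum of 15 the numbers were 74 and 26. At 25 they were 31 and 0, and at 50 they were 14 and 0, the named families being left out of each of these counts. Most of the genes that were switched off, 98 of 124, thus had a signal below 15 with vehicle on at least 1 array, compared with 52 of the 126 that were switched on after it. Of the 9081 genes 70 (0.771%) had a silent probe that was on in the MG cells alone and 6 (0.0661%) in the non-MG cells alone. Other probes were on with vehicle for some of the former, and 52 and 6 of these genes were silent by every probe. The MG array was the brighter of the 5-azacytidine arrays, and with the minimum applied to signals scaled to a common 75th percentile the 70 and 6 became 52 and 13. The detection flag mattered as well. With the scanner software's flag for a positive and significant signal in place of its flag for a signal well above background, 10 of the 31 genes remained. The flag was replaced on the vehicle arrays too, where a positive and significant signal meant that a gene no longer counted as silent. Genes lost included PNMA5 (vehicle intensities 10.3 non-MG and 7.99 MG), H1-1 (3.49 and 6.46) and SLC32A1 (2.77 and 2.69). UCHL1 (2.01 and 2.28) was among those kept. On which arrays each lost gene failed was not counted.

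**Figure D1:**
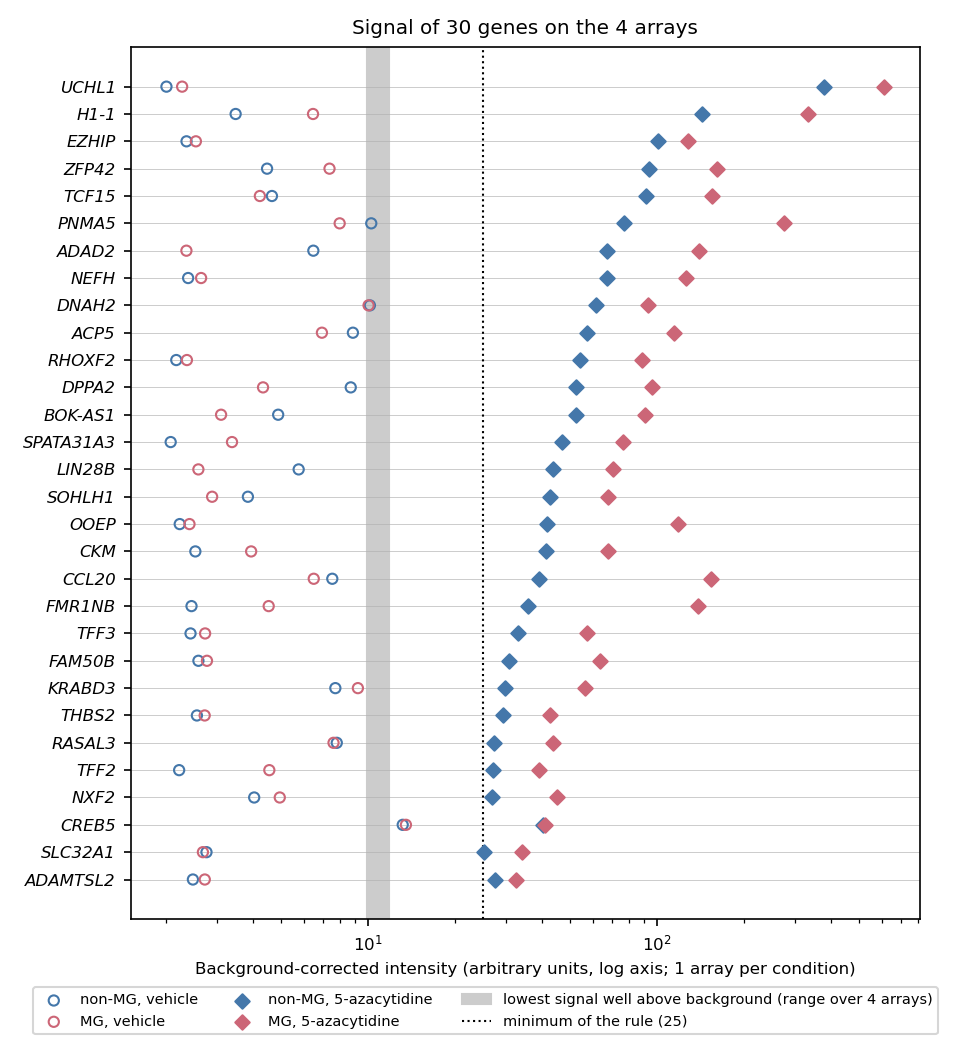
Background-corrected intensity (arbitrary units, log axis) of 30 of the 31 genes on the 4 arrays, 1 point per array. Open circles are vehicle and filled diamonds 5-azacytidine, the grey band spans the detection floors of the 4 arrays (on each, the lowest signal called well above background), and the dotted line is the minimum of 25. All 30 diamonds of the MG cells lie to the right of those of the non-MG cells, and the vehicle points of CREB5 lie between the band and the dotted line.

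Over the 31 genes vehicle signals had a median intensity of 3.49 on the non-MG array (range 2.01 to 13.2) and 3.39 on the MG array (2.28 to 13.5). The medians after 5-azacytidine were 43.8 for non-MG (25.3 to 378) and 88.8 for MG (32.5 to 612). Because a signal that is not well above background has only a bound, each rise is given as at least the scaled 5-azacytidine signal over the detection floor of the vehicle array, which is the scaled lowest signal called well above background there, or over the probe's own vehicle signal where that was higher. The lower bound had a median of 5.05-fold in the non-MG cells and 7.92-fold in the MG cells. In both subpopulations 21 genes rose at least 4-fold, and 5 of them, UCHL1, H1-1, EZHIP, ZFP42 and TCF15, at least 10-fold. These sizes depend on the processing: with the highest signal not well above background as the floor 14 genes passed 4-fold and H1-1 and UCHL1 alone passed 10-fold, and with normexp background correction UCHL1 alone passed 4-fold in both, its smaller bound being 9.09-fold. In RNA from whole cultures, a rise in a few cells and a rise in every cell cannot be told apart. The lower of the 5-azacytidine intensities was nearest to the minimum in ADAMTSL2 (27.6), RASAL3 (27.2), TFF2 (27.2), NXF2 (26.9) and SLC32A1 (25.3). Just short of it were PRF1 (24.7), KHDC3L (23.8), PHKA2-AS1 (23.3), CERS1 (22.8) and FTCD (22.7).

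**Figure D2:**
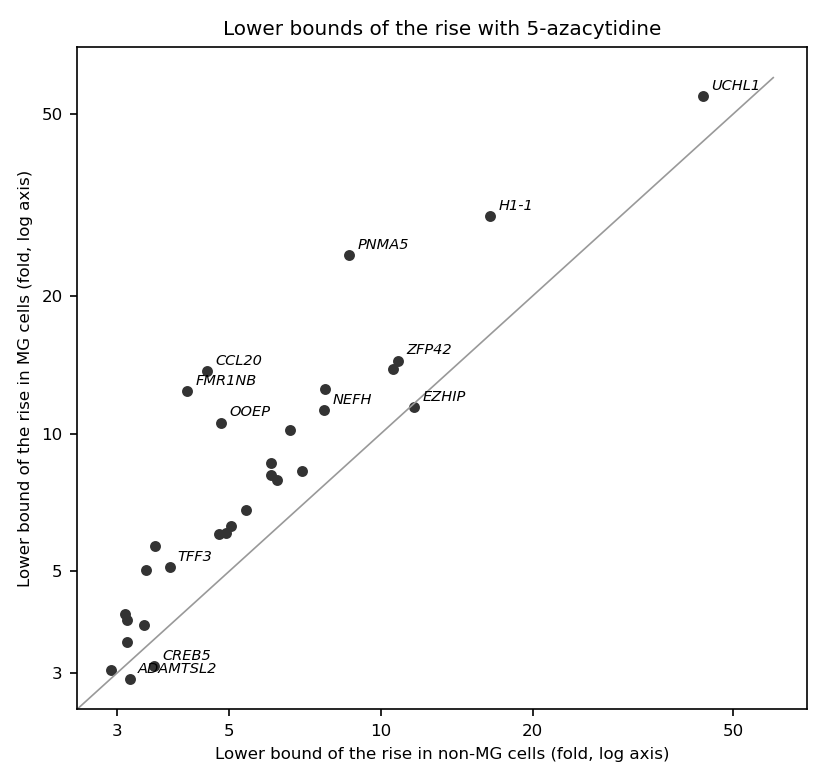
Lower bound of the rise with 5-azacytidine in non-MG cells (horizontal, fold, log axis) and in MG cells (vertical, fold, log axis), 1 point per gene for 30 of the 31. The line marks equal bounds, and 27 of the 30 genes lie above it, with UCHL1 at 43.6 and 54.6 farthest out.

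A promoter window from RefSeq, running from 250 bases before the start of transcription to 50 after it on GRCh38.p14, was held for 25 of the 31 genes. The number of CpG dinucleotides in the 300 bases had a median of 18 (range 3 to 47), compared with 21 over 16401 genes on the array. It was 7.25 over 5458 genes silent on both vehicle arrays by all their probes, and 25.5 over 10041 genes detected on all 4 arrays. At least 15 CpG were present in 15 of the 25 windows (60%), in 65.0% of all windows and in 34.9% of those of silent genes. The ratio of observed to expected CpG had a median of 0.60 in the members, 0.74 in all genes and 0.36 in silent genes. By these medians the members lay between the silent genes as a whole and the genes detected everywhere. They were not uniform, since 8 windows held fewer than 10 CpG and 11 held 20 or more. The letters TATAAA, searched on the strand of the gene only, were found for 5 of the 25 genes (20%). These were ADAMTSL2, CCL20, CREB5, H1-1 and THBS2, with the first letter 29 to 31 bases before the start. TATAAA was found for 8.44% of all genes with a window and for 13.6% of the silent ones. All these counts are of genes. For a gene with several starts CpG values are medians over its windows, whereas TATAAA in any 1 window was enough. Which start was in use was not tested.

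The 250 bases before the start are printed for the 4 genes with the largest bounds among those with a window, for KRABD3 as the densest in CpG, and for CCL20 and CKM as sparse ones. Each runs 5′ to 3′ on the strand of the gene, from RefSeq on GRCh38.p14, with every CpG in capitals.
UCHL1 (chr4:41256678-41256927, plus strand): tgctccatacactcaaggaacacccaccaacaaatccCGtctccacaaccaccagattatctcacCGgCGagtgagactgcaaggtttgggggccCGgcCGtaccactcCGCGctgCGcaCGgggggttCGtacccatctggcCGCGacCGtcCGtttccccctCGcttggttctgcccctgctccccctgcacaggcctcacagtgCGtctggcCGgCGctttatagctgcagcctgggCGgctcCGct
H1-1 (chr6:26017788-26018037, minus strand): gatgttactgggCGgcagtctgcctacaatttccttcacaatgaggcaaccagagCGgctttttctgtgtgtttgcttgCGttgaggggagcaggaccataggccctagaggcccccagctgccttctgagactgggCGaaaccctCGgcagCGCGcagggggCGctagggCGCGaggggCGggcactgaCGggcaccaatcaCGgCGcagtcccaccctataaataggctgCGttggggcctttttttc
EZHIP (chrX:51406698-51406947, plus strand): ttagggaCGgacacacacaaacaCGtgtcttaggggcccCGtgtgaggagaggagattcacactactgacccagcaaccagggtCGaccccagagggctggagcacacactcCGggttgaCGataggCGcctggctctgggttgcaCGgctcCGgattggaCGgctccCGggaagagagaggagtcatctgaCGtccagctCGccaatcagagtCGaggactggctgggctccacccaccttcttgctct
ZFP42 (chr4:187995521-187995770, plus strand): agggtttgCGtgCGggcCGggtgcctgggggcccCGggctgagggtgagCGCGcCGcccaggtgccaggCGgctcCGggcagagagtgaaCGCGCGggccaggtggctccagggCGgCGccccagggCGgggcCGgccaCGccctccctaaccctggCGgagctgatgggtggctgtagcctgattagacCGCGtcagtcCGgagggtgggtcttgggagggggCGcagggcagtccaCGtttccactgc
KRABD3 (chr7:149714701-149714950, plus strand): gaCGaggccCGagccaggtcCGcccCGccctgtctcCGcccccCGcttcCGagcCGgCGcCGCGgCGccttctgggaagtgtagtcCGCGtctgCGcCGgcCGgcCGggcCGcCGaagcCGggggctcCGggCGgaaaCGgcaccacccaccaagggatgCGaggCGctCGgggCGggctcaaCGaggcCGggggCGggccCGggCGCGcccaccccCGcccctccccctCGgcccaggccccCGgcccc
CCL20 (chr2:227813592-227813841, plus strand): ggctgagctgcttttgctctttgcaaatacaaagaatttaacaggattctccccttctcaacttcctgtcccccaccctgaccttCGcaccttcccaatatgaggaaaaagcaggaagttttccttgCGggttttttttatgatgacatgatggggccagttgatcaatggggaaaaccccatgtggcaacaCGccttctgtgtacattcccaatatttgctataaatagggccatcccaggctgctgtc
CKM (chr19:45322876-45323125, minus strand): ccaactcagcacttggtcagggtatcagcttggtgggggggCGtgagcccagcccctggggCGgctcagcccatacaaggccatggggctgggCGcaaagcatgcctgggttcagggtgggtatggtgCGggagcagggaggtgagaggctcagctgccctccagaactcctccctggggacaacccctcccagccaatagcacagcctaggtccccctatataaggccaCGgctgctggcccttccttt
These stretches held 20 CpG in UCHL1, 15 in H1-1, 14 in EZHIP, 23 in ZFP42 and 37 in KRABD3, compared with 3 in CCL20 and 5 in CKM. The stretches were chosen to show both dense and sparse promoters, so these counts do not describe the members as a whole.

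**Figure D3:**
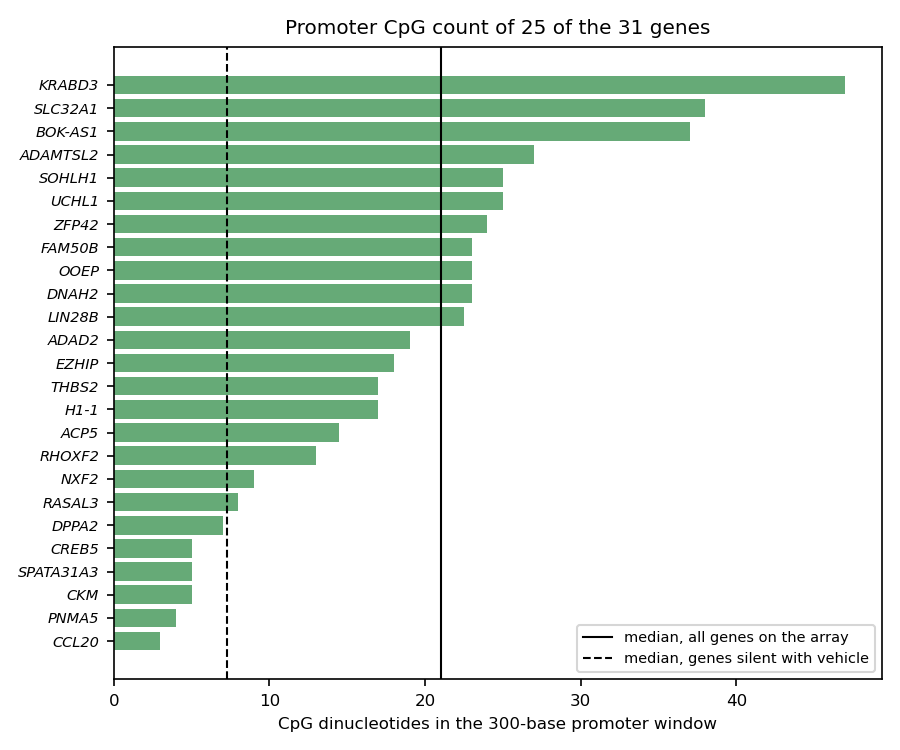
Number of CpG dinucleotides (horizontal axis) in the 300-base promoter window of the 25 genes that have one, as bars. The solid line is the median of all genes on the array (21) and the dashed line that of genes silent with vehicle (7.25), and the bars run from 3 for CCL20 to 47 for KRABD3.

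The neuronal members included the gene with the largest bound. UCHL1, a deubiquitinating enzyme abundant in neurons, read 2.01 (non-MG) and 2.28 (MG) under vehicle and 378 (non-MG) and 612 (MG) under 5-azacytidine. It rose at least 43.6-fold in the non-MG and at least 54.6-fold in the MG cells. NEFH, the heavy subunit of neurofilaments, read 2.39 and 67.0 in the non-MG cells and 2.65 and 126 in the MG cells, which is at least 7.73-fold and at least 11.2-fold. The probes of its partner subunits NEFL and NEFM failed detection on all 4 arrays. A second probe of NEFH read 5.58 and 7.31 in the non-MG cells and 6.89 and 18.3 in the MG cells, and only the last of these was well above background. SLC32A1, which loads GABA and glycine into synaptic vesicles, read 25.3 (non-MG) and 34.1 (MG) under 5-azacytidine and 2.77 and 2.69 under vehicle. Of 36 listed neuronal genes 23 were silent with vehicle by every probe, and UCHL1 and NEFH were the 2 that became members. Over all named genes 7637 were silent by every probe, and 31 of these became members. At any signal, 2 of the silent neuronal genes and 124 of all silent genes were switched on. The list was chosen with earlier results of these data known, and the difference was not tested.

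Regulators of chromatin and of early development made up the next group. H1-1, a linker histone gene, had intensities of 3.49 and 143 in the non-MG cells and of 6.46 and 335 in the MG cells, without and with 5-azacytidine. Its lower bounds were 16.5-fold and 29.9-fold. EZHIP, an inhibitor of the Polycomb repressive complex that is normally made in the gonads, read 2.36 and 101 in the non-MG cells and 2.54 and 128 in the MG cells, and rose at least 11.6-fold and at least 11.4-fold, nearly the same in both. ZFP42 (REX1), a zinc finger protein of pluripotent cells, read 4.48 and 93.8 in the non-MG cells and 7.37 and 162 in the MG cells, and rose at least 10.8-fold and at least 14.4-fold. TCF15, a basic helix-loop-helix factor of the somites, read 4.66 and 91.8 in the non-MG cells and 4.23 and 155 in the MG cells. DPPA2, a chromatin factor of the early embryo, rose at least 6.05-fold and at least 8.62-fold. Its usual partner DPPA4 failed detection on all 4 arrays, with intensities from 2.02 to 3.27. LIN28B, which blocks maturation of let-7 microRNAs, rose at least 5.05-fold and at least 6.29-fold.

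Several members, grouped here after they were seen, are known from the germ line or its antigens. ADAD2, a protein of male germ cells with an adenosine deaminase domain, read 6.48 and 67.1 in the non-MG cells and 2.36 and 140 in the MG cells, a rise of at least 7.74-fold and at least 12.5-fold. OOEP, a component of the subcortical maternal complex of oocytes, read 2.23 and 41.8 in the non-MG cells and 2.42 and 119 in the MG cells, at least 4.82-fold and at least 10.6-fold. Another gene of that complex, KHDC3L, also went from silent to detected in both subpopulations, with 23.8 and 58.9 after treatment, and fell short of the minimum in the non-MG cells. SOHLH1, a helix-loop-helix factor of spermatogonia and oocytes, rose at least 4.94-fold and at least 6.06-fold, whereas both probes of SOHLH2 stayed below detection on all 4 arrays. RHOXF2, a homeobox gene of the reproductive tract, rose at least 6.24-fold and at least 7.92-fold, SPATA31A3, of a family linked to spermatogenesis, at least 5.40-fold and at least 6.81-fold, and NXF2, a testis messenger RNA export factor, at least 3.11-fold and at least 4.04-fold. These 3 have near-identical copies in the genome, and their probes may also read those. PNMA5, of the paraneoplastic antigen family, read 10.3 and 76.9 in the non-MG cells and 7.99 and 276 in the MG cells. FMR1NB, a cancer-testis antigen, read 2.45 and 35.8 in the non-MG cells and 4.54 and 139 in the MG cells. DNAH2, a dynein heavy chain of cilia and sperm tails, read 10.2 and 61.4 in the non-MG cells and 10.1 and 93.0 in the MG cells.

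Of 66 listed germ-line genes on the array, with the antigen families left out by name not among them, 46 (69.7%) were silent with vehicle by every probe and 9 of these were switched on at any signal, among them the members DPPA2, NXF2, PNMA5 and RHOXF2. Over all named genes 7637 (35.3%) were silent by every probe and 124 of these were switched on at any signal. The X chromosome carried 5 of the 31 members (16.1%), namely EZHIP, FMR1NB, NXF2, PNMA5 and RHOXF2, compared with 363 of the 7637 silent genes (4.75%). The other lists gave fewer members. Of 39 interferon-stimulated genes 12 were silent and 0 were switched on at any signal, and of 27 placental genes 20 were silent and 0 were switched on, and so few silent genes cannot set these lists apart from the count over all genes. Of 65 genes known for promoter methylation in colorectal cancer 41 were silent, and 2 of these were switched on at any signal, the member UCHL1 and, below the minimum, EFEMP1. CRABP1 was switched on by 1 probe, but its other probe passed detection on the non-MG vehicle array (17.4).

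Genes of secreted proteins were also members. TFF3 and TFF2, trefoil peptides that protect the mucosa, lie next to each other on chromosome 21 with no protein-coding gene between them. TFF3 read 2.44 and 33.0 in the non-MG cells and 2.74 and 57.2 in the MG cells, and TFF2 read 2.22 and 27.2 in the non-MG cells and 4.56 and 39.2 in the MG cells. TFF1, beside them, was on everywhere at 26.3 to 32.1. No other pair of members was adjacent, the next closest being ADAMTSL2 and SOHLH1 with 21 protein-coding genes between them.

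CCL20, the chemokine ligand of CCR6, had the largest log2 ratio of MG over non-MG signal with 5-azacytidine among the members, 1.61. FMR1NB at 1.60 and PNMA5 at 1.48 lay within the spot error of CCL20 (0.17), so their order is not resolved. The signals of CCL20 were 7.54 and 39.1 in the non-MG cells and 6.5 and 154 in the MG cells, a rise of at least 4.51-fold and at least 13.7-fold. Of 30 listed cytokine genes 19 were silent with vehicle and 3 were switched on at any signal: CCL20, CXCL8, which reached 10.2 in the non-MG and 38.6 in the MG cells, and IL32. Over all named genes 124 of 7637 silent genes were switched on at any signal. THBS2, a matricellular protein, rose at least 3.39-fold and at least 3.82-fold, and ADAMTSL2, a glycoprotein of the matrix, at least 3.18-fold and at least 2.90-fold, the smallest bound of all.

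The remaining members have varied roles. ACP5, the tartrate-resistant phosphatase of osteoclasts and macrophages, read 8.88 and 57.2 in the non-MG cells and 6.94 and 114 in the MG cells, at least 6.60-fold and at least 10.2-fold. BOK-AS1, an RNA antisense to BOK, rose at least 6.04-fold and at least 8.12-fold. CKM, the creatine kinase of muscle, rose at least 4.77-fold and at least 6.05-fold, and FAM50B, an imprinted retrogene, at least 3.56-fold and at least 5.67-fold. RASAL3, a Ras GTPase-activating protein of blood cells, rose at least 3.14-fold and at least 3.91-fold. Of 32 listed blood-lineage genes 13 were silent and 2, CD79B and PRF1, were switched on below the minimum. The count over all named genes, at any signal, was 124 of 7637 silent genes. KRABD3 read 29.7 and 56.3 with 5-azacytidine. CREB5, a factor that binds cyclic AMP response elements, had the least separated signals, with 13.2 and 40.5 in the non-MG cells and 13.5 and 41.0 in the MG cells. Its vehicle signals exceeded the lowest signal called well above background on those arrays, so its bounds, 3.55-fold and 3.10-fold, rest on its own signals.

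The rule set a minimum on both 5-azacytidine signals but did not compare them, and their ratio is given as a description beside that of all genes held to the same minimum. Genes on in one subpopulation alone are in neither set. After scaling by the 75th percentile, the signal with 5-azacytidine was higher in the MG than in the non-MG cells for 27 of the 31 genes (87.1%), with a median log2 ratio of 0.39 (range -0.34 to 1.61). Over all 11807 genes well above background at 25 or more on both arrays 6702 (56.8%) were higher, and the median was 0.06. Of these, 7768 lay within the intensity range of the members, with 4004 (51.5%) higher and a median of 0.01. That range ran from 25.3 to 612, its top set by UCHL1, whereas the member medians were 43.8 (non-MG) and 88.8 (MG). Past 1.5-fold 8 of 31 members were higher in the MG cells and 0 were lower, compared with 666 (5.64%) higher and 631 (5.34%) lower among all 11807. The 8 were CCL20 (log2 ratio 1.61), FMR1NB (1.60), PNMA5 (1.48), OOEP (1.14), H1-1 (0.87), ADAD2 (0.70), FAM50B (0.68) and ACP5 (0.64). Toward the other end were CREB5 (-0.34), ADAMTSL2 (-0.12), EZHIP (-0.01) and SLC32A1 (0.07). The SD between spots of one probe, estimated from 902 probes spotted 10 times, was 0.16 to 0.20 on the log2 scale at intensities from 22.6 to 45.3 and 0.06 to 0.08 above 256. The ratio exceeded 2 such errors in either direction for 19 members. This error covers spotting and scanning only, and differences between cultures and labellings were not measured.

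**Figure D4:**
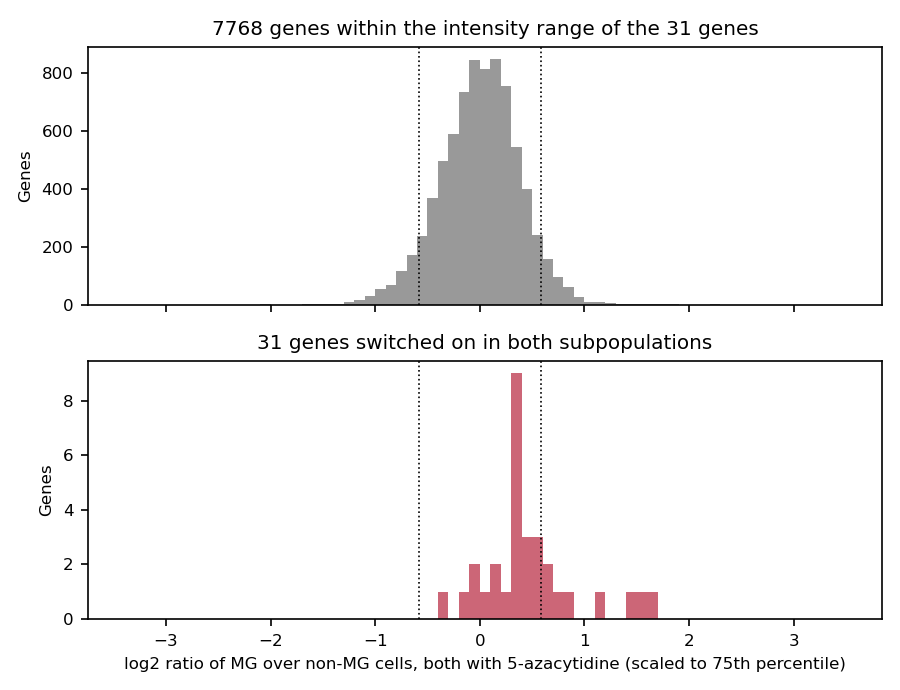
Distribution of the MG over non-MG log2 ratio under 5-azacytidine (horizontal axis) as numbers of genes (vertical axis), for 7768 genes within the intensity range of the members (top) and for the 31 members (bottom). Dotted lines mark 1.5-fold in either direction, and 8 members lie beyond the right line and 0 beyond the left.

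The size of this difference depended on scaling. Centring each array on its median moved the ratio of all genes from 0.06 to 0.31 and that of the members from 0.39 to 0.65, so that 20 members passed 1.5-fold. CREB5 alone then stayed below 0. The share of all genes past 1.5-fold was not counted with this centring. With normexp background correction the median of the members was 0.21, compared with 0.10 for all genes, and 8 members were below 0.

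A further probe was available for 5 members. ADAMTSL2, NEFH, SPATA31A3, TFF3 and THBS2 had 8 further RefSeq probes between them, of which 5 were well above background on no array, 3 on 1 of the 5-azacytidine arrays and 0 on a vehicle array. On both 5-azacytidine arrays 5 of the 8 read higher than on both vehicle arrays. The further probes of TFF3 read 3.45 and 2.28 under vehicle and 9.54 and 5.41 under 5-azacytidine in the non-MG cells. The further probe of THBS2 read 2.33 and 2.14 there, and one of SPATA31A3 read 2.61 and 2.44, all below detection. Neither further probe of ADAMTSL2 passed detection on any array. With 5-azacytidine one read 8.68 (non-MG) and 7.89 (MG), and the other 4.29 (non-MG) and 8.22 (MG). The other 26 members were measured by a single RefSeq probe.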

How the data were processed

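RNA of MG and non-MG HCT116 cells given vehicle or 5-azacytidine was measured on 4 one-colour Agilent arrays, 1 per condition, with 400 ng of RNA labelled. Conditions were taken from the sample labels. The labels name RNAiso Plus for RNA extraction, and the methods an RNeasy kit. The authors deposited Agilent Feature Extraction 11.5.1.1 output, whose background-corrected intensity values are linear and not normalized between arrays, and a table of log2 values that the authors centred per probe on the median of the 4 arrays. The methods name GeneSpring with filters on low percentiles and flags. The number of arrays limits the precision of every ratio.

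Spots of a probe were averaged, control spots were left out, and log2 intensity minus the 75th percentile of its array was used for ratios. Of 32083 probes with a RefSeq accession 30004 (93.5%) were named through the RefSeq table of GRCh38.p14. Because the design of the array is on hg19, only coordinates of the RefSeq promoter windows are given. A further 2 probes met the detection rule with an accession that the table does not hold, so that the exclusion by name could not be applied and they were not counted. The members, the rule and the gene lists were chosen with earlier results of these data known, and the grouping by role was made after the members were seen. Named are the 25 members with the largest smaller bound, members on a list, the 5 with the largest and smallest MG over non-MG ratio, genes at the edge of the minimum, members with several probes, and adjacent members. The values of 1 member are not reported here, although it stays in the counts and medians. Relatives of members were named after their values were seen. The code that applies the rule was checked by raising silent probes on these arrays above the minimum and marking them as detected. Such probes meet the rule by construction, so the check covers the code only and gives no error rate.

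Alternatives were median centring, quantile normalization, normexp with an offset of 50 (limma 3.58.1, R 4.3.3) on spot medians, the authors' table, another detection flag, another floor, other minimums and a 2-fold threshold. The counts of genes switched off at other minimums, and of genes on in one subpopulation with a scaled minimum, were added after seeing the data. Scripts ran under Python 3.11.15 with pandas 2.3.3, numpy 2.4.6 and, for plots, matplotlib 3.10.9.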

Additional observations from a re-analysis of the deposited data

Results flagged for a closer look

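Beside the RefSeq probes, 5 probes without a RefSeq accession met the same conditions, in data outside the gene counts. A_21_P0013836 read 2.53 and 206 in the non-MG cells and 2.68 and 392 in the MG cells, without and with 5-azacytidine. A_21_P0010434 read 2.71 and 61.4 in the non-MG cells and 4.20 and 61.8 in the MG cells. A_21_P0013865 read 5.83 and 60.4, and 8.71 and 96.9, in the same order. A_21_P0012252 read 6.86 and 38.1 in the non-MG cells and 12.8 and 71.1 in the MG cells, and A_21_P0014517 read 7.04 and 36.6 in the non-MG cells and 10.9 and 47.6 in the MG cells. Their transcripts have no gene name here. After scaling by the 75th percentile the signal with 5-azacytidine was higher in the MG than in the non-MG cells for 4 of the 5 probes, by 0.02 on the log2 scale for A_21_P0014517, and lower for A_21_P0010434 (-0.35).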

How the results depend on the processing

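The number of genes meeting the rule, 31, became 74 with a minimum of 15, 14 with a minimum of 50 and 10 with the flag for a positive and significant signal, and 39 with the minimum applied after scaling. It stayed at 31 without outlier spots and when no other RefSeq probe of the gene was allowed to be on with vehicle. The median of the smaller bound, 5.05-fold, was 3.66-fold with the highest signal not well above background as the floor and 1.77-fold with normexp, which left 8 members under 1.5-fold. The median MG over non-MG log2 ratio, 0.39, was 0.65 with median centring and 0.21 with normexp, and the 8 members past 1.5-fold became 20 and 5, or 4 past 2-fold. Quantile normalization and the authors' values gave 9 and 8. No ratio past 1.5-fold changed sign. The median CpG count of the members was 3 below that of all genes (-3) and 11 above that of genes never well above background. The 7 members on the gene lists, the marker lists left aside, became 19 genes with no minimum. Naming further probes from gene names in the files was not run, because the files hold none. No paired analysis was possible because each group has 1 array, so that no replicate numbers are shared. Depth in the sense of signal over background limits the dimmest members, whose smallest bound is 2.90-fold.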

Other observations

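Outside the 31 genes, 2 probes met the same conditions with accessions that could not be matched to a gene name. A_24_P228796 read 6.51 and 1668 in the non-MG cells and 2.40 and 2510 in the MG cells, without and with 5-azacytidine. A_33_P3363355 read 11.2 and 32.7 in the non-MG cells and 12.1 and 64.3 in the MG cells. DNMT1, the maintenance DNA methyltransferase and a target of the drug, was on everywhere, with 544 and 512 in the non-MG cells and 780 and 760 in the MG cells.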
